A study of Mus musculus with 7 samples.

Results

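The collagen gene family was described across mammary tumours that arose in ECD transgenic mice and across control mammary glands. Its members were all rows whose gene symbol had the form Col, a number, the letter a and a number, which gave 44 genes of 50600 in the tables. RNA had been sequenced from 3 control glands (called gland 1, 2 and 3), and from 4 tumours. The sources used here do not give the genotype, strain or age of the glands. Of the tumours, 1a and 1b were labelled adenosquamous carcinoma, tumour 3 spindle cell carcinoma and tumour 4 papillary carcinoma. All tumours carried the ECD transgene; its species, promoter and copy number, and the age of the mice, are likewise not given. Tumour RNA came from the middle of the mass, so the margin with the surrounding gland was not sampled. The design text calls the samples independent, but whether tumours 1a and 1b, which share a number, grew in 1 animal is not given. The p-values measure the spread between these libraries only.

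Collagens are proteins of the extracellular matrix whose alpha chains wind around each other into a stiff helix. Fibrillar collagens, led by types I and III, form the ropes of connective tissue, while type IV forms the sheet of the basement membrane on which mammary epithelium sits. FACIT collagens (fibril-associated collagens with interrupted helices) decorate the surface of fibrils, and transmembrane collagens are anchored in the cell membrane. In the mammary gland fibroblasts make most fibrillar collagen, and fat, vessels, nerves, muscle and epithelium each lie on basement membranes of their own.

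Library totals ran from 5148438 to 35631279 counts, and genes of mitochondrial DNA took 48.4% to 64.8% of counts in glands but 18.3% to 32.6% in tumours. Levels are given as CPM, counts per 1000000 of a library size scaled by the TMM method, which allows a gene to be compared between libraries but not with another gene. Marker lists of other cell types also differed between the groups. The 12 fibroblast markers summed to 506.5 to 1129 CPM in glands, 966 and 584 in tumours 1a and 1b, 122 in tumour 3 and 67.0 in tumour 4, with Tcf21 at 0 everywhere and Dpt at 0 in tumour 1b. Of the 11 tested, 2 were lower in all tumours together (Dpt and Gsn), while in the adenosquamous tumours 2 were higher (S100a4 and Fbln2) and 1 was lower (Gsn). The 10 adipocyte markers summed to 3426 to 7323 CPM in glands and 33.3 to 174 in tumours, with 9 of 10 lower and Adipoq, Cidec, Retn and Cfd at 0 in tumour 3. The 8 endothelial markers summed to 216 to 356 CPM in glands and 40.6 to 254 in tumours. None of the 8 passed in edgeR for the tumours together. At unadjusted p under 0.05 there were 4 (Pecam1, Kdr, Tek and Emcn), against 28.9% of all genes in either direction. The 8 skeletal muscle markers summed to 15530 and 30460 CPM in glands 1 and 3, 22.2 in gland 2 and 1.22 to 280 in tumours, so glands 1 and 3 carried far more muscle transcripts than gland 2. The 4 basal epithelial markers summed to 28.4 to 53.9 CPM in glands, 1537, 718 and 309 in tumours 1a, 1b and 3 and 21.3 in tumour 4. The 5 luminal markers, which include Krt8 and Krt18, were detected in every library and reached 1745 CPM in tumour 4. In bulk RNA fewer cells of a type and less RNA per cell cannot be told apart, and the part these cell types play in the collagen values was not tested.

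Collagen transcripts took a larger share of the library in the adenosquamous tumours than in any other library. The 44 genes together held 0.0367% (95% exact Clopper-Pearson interval 0.0350 to 0.0384), 0.151% (0.150 to 0.153) and 0.112% (0.111 to 0.113) of all counts in glands 1, 2 and 3. They held 1.82% (1.81 to 1.83) in tumour 1a, 0.791% (0.784 to 0.798) in tumour 1b, 0.205% (0.202 to 0.209) in tumour 3 and 0.123% (0.122 to 0.125) in tumour 4. The intervals cover counting error only. Tumours 1a and 1b stood above the other 5 libraries, tumour 3 lay just above the glands, and tumour 4 lay between glands 3 and 2. With mitochondrial genes left out of the total, the shares were 0.104%, 0.293% and 0.248% in the glands, 2.23% and 1.04% in tumours 1a and 1b, 0.256% in tumour 3 and 0.183% in tumour 4, which put tumours 3 and 4 within the range of the glands.

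**Figure D1:**
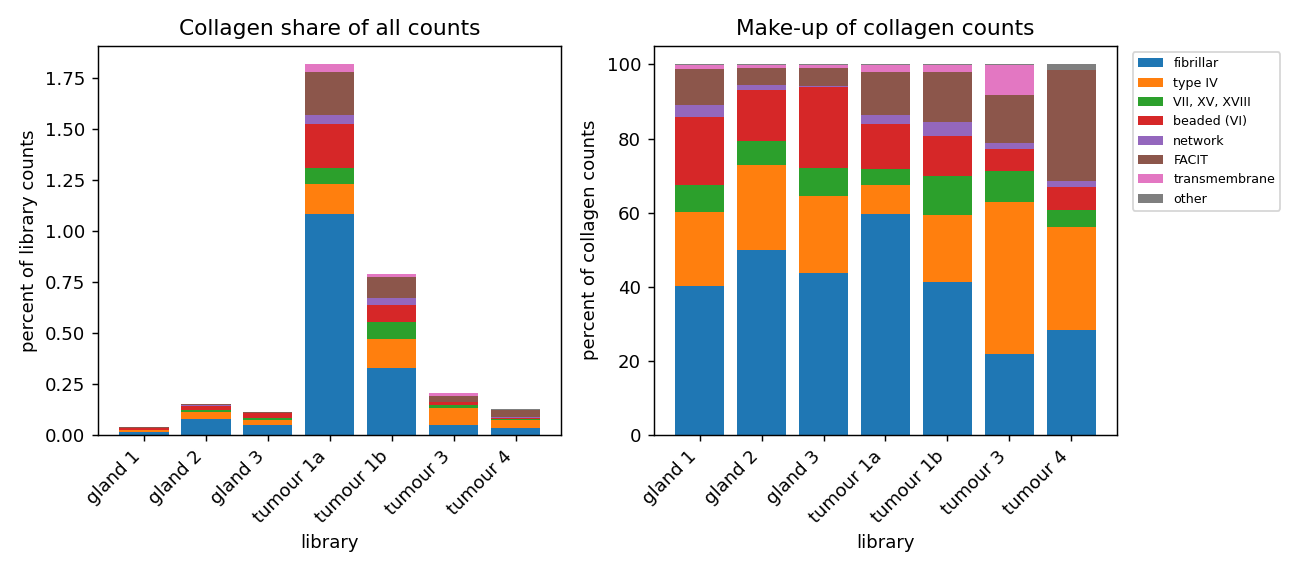
Left, the percent of each library's counts that fell on the 44 collagen genes, split by class (stacked bars, 1 library each, no error bar); right, the percent of collagen counts in each class. Tumours 1a (1.82%) and 1b (0.791%) stand above the other 5 libraries, and the largest class is fibrillar in the glands and tumours 1a and 1b, type IV in tumour 3 (40.9%) and FACIT in tumour 4 (30.0%).

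The make-up of the collagen counts differed as well. Fibrillar genes held 40.1%, 49.9% and 43.7% of collagen counts in the glands, 59.7% and 41.3% in tumours 1a and 1b, 21.8% in tumour 3 and 28.2% in tumour 4. Type IV genes held 20.1%, 22.9% and 20.8% in the glands, 7.89% and 18.1% in tumours 1a and 1b, 40.9% in tumour 3 and 28.0% in tumour 4. FACIT genes held 4.59% to 9.69% in the glands, 11.6%, 13.5% and 12.8% in tumours 1a, 1b and 3 and 30.0% in tumour 4. Col9a1 alone held 18.3% in tumour 4, and the other FACIT genes 11.7% there. The transmembrane genes held 8.19% in tumour 3 against 0.789% to 1.22% in the glands. Beaded filament genes of type VI held 13.7% to 21.7% in the glands, 12.1% in tumour 1a, 10.8% in tumour 1b, 5.86% in tumour 3 and 6.18% in tumour 4. These shares are of counts, which favour long transcripts, and come with 1 library for tumours 3 and 4.

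Whether tumours differ from normal glands is the question set by the title of the series. Of the 44 genes, 35 passed the filter on low counts and were tested among 14149 genes. The 9 others (Col4a3, Col4a4, Col6a4, Col10a1, Col19a1, Col20a1, Col22a1, Col26a1 and Col28a1) reached its count cutoff in fewer than 3 libraries. The filter grouped libraries only as glands or tumours. A gene high in only 1 or 2 libraries, such as Col10a1 or Col28a1, could thus be left out. Taking the 4 tumours together, 1 of 35 collagens was higher, Col16a1, and 0 were lower by edgeR's quasi-likelihood test at a Benjamini-Hochberg adjusted p under 0.05, against 3.90% and 4.57% of all genes tested (at unadjusted p under 0.05, 10 were higher and 1 lower, against 28.9% of all genes in either direction; DESeq2 called 11 and limma-voom 1). Below, a gene is said to pass, or to have risen or fallen, by this edgeR test unless another tool is named. The median log2 fold change of the 35 was 1.69, against 0.12 over all genes. Levels of 3 of the 35 were higher in every tumour than in every gland (Col4a5, Col11a1 and Col16a1) and 1 was lower (Col6a6), against 16.3% and 13.2% of all genes tested. The call of Col16a1 was lost without gland 1, 2 or 3, tumour 1a, tumour 1b or tumour 3, with edgeR adjusted p from 0.0586 to 0.129. Without tumour 4 there were 4 calls (Col7a1, Col11a1, Col16a1 and Col17a1), and without tumour 1a 2 calls (Col4a5 higher and Col6a6 lower).

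The tumour types were compared with the same 3 glands, so these comparisons share their controls. In the adenosquamous tumours 13 of 35 collagens were higher and 0 were lower by edgeR's quasi-likelihood test with Benjamini-Hochberg adjustment, against 5.52% higher and 5.33% lower of all genes tested (at unadjusted p under 0.05, 23 were higher and 1 lower, against 29.6% of all genes in either direction). They were Col1a1, Col1a2, Col5a1, Col5a2, Col5a3 and Col11a1 of the fibrillar class, Col7a1 and Col18a1 of the basement membrane zone, Col8a1 and Col8a2 of the network class, Col12a1 and Col16a1 of the FACIT class and the transmembrane Col17a1. Without Col8a2, which no gland brought to the count cutoff of the filter, there were 12. The median log2 fold change of the 35 was 2.05, against 0.02 over all genes. All 13 calls were lost without gland 3, tumour 1a or tumour 1b, where 22, 19 and 19 collagens were at unadjusted p under 0.05 in edgeR; without gland 1 there were 8 calls, 7 of them among the 13, and without gland 2 there were 11, all among the 13. DESeq2 called 22 and limma-voom the same 13.

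In the spindle cell tumour, a single library that the model assumed to vary like the other groups, 3 of 35 collagens were higher (Col4a5, Col7a1 and Col16a1) and 0 lower by edgeR, against 1.11% and 0.770% of all genes tested. At unadjusted p under 0.05 there were 8 higher and 4 lower, against 22.3% of all genes in either direction. All 3 calls were lost in the fits that left out gland 1, gland 3, tumour 1a or tumour 1b, where edgeR gave 13, 10, 14 and 14 collagens an unadjusted p under 0.05, and only Col4a5 passed without gland 2. In the papillary tumour, also 1 library, 1 of 35 was higher (Col4a5) and 0 lower, against 5.70% and 5.41% of all genes tested, with 4 higher and 6 lower at unadjusted p under 0.05, against 30.7% of all genes in either direction. Leaving out gland 3, tumour 1a or tumour 1b ended that call, with 7, 14 and 14 collagens then at an unadjusted p under 0.05 in edgeR. It was joined by Col28a1, which then passed the filter, without gland 1 or tumour 3. The median log2 fold change of the 35 was 0.45 for the spindle cell and -0.58 for the papillary tumour, against 0.00 and -0.01 over all genes.

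**Figure D2:**
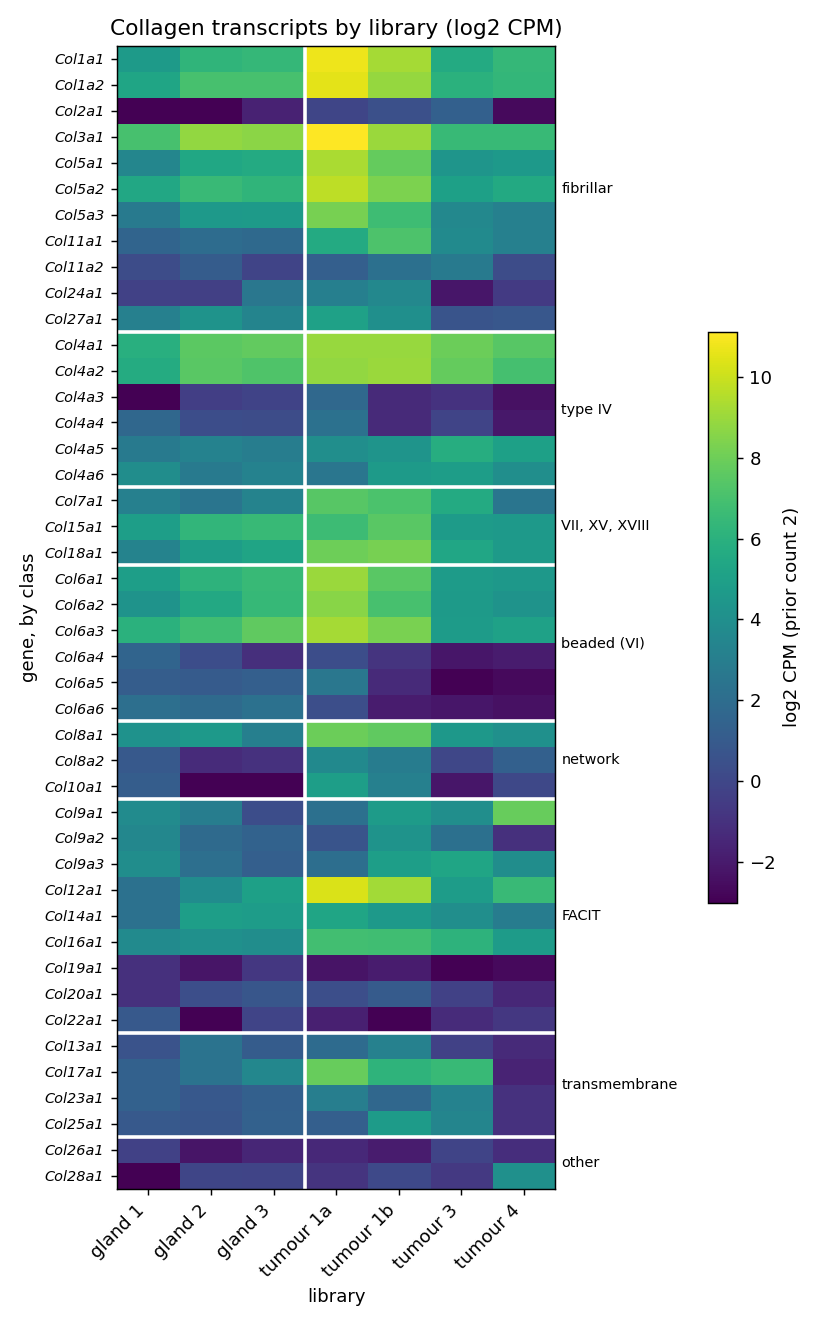
Log2 CPM (prior count 2) of all 44 collagen genes (rows, grouped by class) in the 7 libraries (columns), glands left and tumours right of the white line. Among the 35 tested genes the highest library was tumour 1a for 19, tumour 1b for 8, tumour 3 for 6, tumour 4 for 1 and gland 3 for 1. How often each library was the highest over all genes tested was not counted, so these numbers only describe the collagens.

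The fibrillar class held 6 of the 13 genes that rose in the adenosquamous tumours, out of 11 tested, against 5.52% higher of all genes. None of the 11 passed in the spindle cell or papillary tumour in edgeR. At unadjusted p under 0.05 there were 3 higher and 1 lower in the spindle cell and 1 lower in the papillary tumour. Over all genes 22.3% and 30.7% reached that level there, in either direction. Col1a1 and Col1a2 encode the chains of type I collagen, the main fibril of skin, bone and scar. Gene positions are given in build GRCm38. Col1a1 (ENSMUSG00000001506, chromosome 11, 94936224 to 94953042) was at 25.8, 75.9 and 83.7 CPM in glands 1, 2 and 3, 1765 and 602 in tumours 1a and 1b, 50.1 in tumour 3 and 84.5 in tumour 4. Col1a2 (ENSMUSG00000029661, chromosome 6, 4504814 to 4541544) was at 39.3, 129 and 130.5 CPM in the glands and at 1517, 476, 65.1 and 81.0 in tumours 1a, 1b, 3 and 4. Tumour 1a was highest and 1b next for both chains, while tumours 3 and 4 lay within or just above the range of the glands. In the adenosquamous tumours Col1a1 rose 19.1-fold (log2 4.25, SE 0.71, edgeR adjusted p = 0.0231) and Col1a2 9.98-fold (log2 3.32, SE 0.72, edgeR adjusted p = 0.0394). Without tumour 1a these log2 fold changes were 3.30 and 2.27, and neither passed.

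Col3a1, the type III chain of reticular fibrils, did not pass in any comparison in edgeR, while DESeq2 called it in the adenosquamous tumours and among the tumour types, as edgeR with no filter on counts did among the types. It was at 127, 456 and 407 CPM in glands 1, 2 and 3, 2233 and 503 in tumours 1a and 1b, 90.3 in tumour 3 and 89.4 in tumour 4. Tumour 1a stood far above the rest, tumour 1b was close to glands 2 and 3, and tumours 3 and 4 were below all 3 glands. The log2 fold change was 1.14 for all tumours (edgeR adjusted p = 0.554) and -0.52 without tumour 1a, so its sign rested on that library. For tumour 1a and 1b together it was 2.05 (edgeR adjusted p = 0.146).

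The type V genes encode minor chains that are built into type I fibrils and set their diameter. Col5a1 (ENSMUSG00000026837, chromosome 2, 27886425 to 28039514) was at 11.0, 42.9 and 49.3 CPM in the glands and at 634, 219, 20.2 and 23.7 in tumours 1a, 1b, 3 and 4. Col5a2 (ENSMUSG00000026042, chromosome 1, 45374321 to 45503282), the neighbour of Col3a1 on chromosome 1, was at 44.6, 93.5 and 73.9 CPM in glands 1, 2 and 3, 836 and 323 in tumours 1a and 1b, 32.0 in tumour 3 and 47.5 in tumour 4. Col5a3 (ENSMUSG00000004098, chromosome 9, 20770050 to 20815067) was at 6.72, 24.5 and 25.4 CPM in the glands and at 299, 107, 12.0 and 8.81 in tumours 1a, 1b, 3 and 4. As with type I, tumours 1a and 1b were above all other libraries for each of them, and tumour 3 was below glands 2 and 3. The adenosquamous rises were 12.3-fold for Col5a1 (log2 3.62, SE 0.74, edgeR adjusted p = 0.0358), 8.18-fold for Col5a2 (log2 3.03, SE 0.54, edgeR adjusted p = 0.0250) and 10.5-fold for Col5a3 (log2 3.40, SE 0.68, edgeR adjusted p = 0.0332). Without tumour 1a the log2 fold changes were 2.67, 2.21 and 2.49, and none of the 3 passed.

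Col11a1, a type XI chain that nucleates fibrils in cartilage, took another order of libraries. Col11a1 (ENSMUSG00000027966, chromosome 3, 114030540 to 114220718) was at 2.83, 3.88 and 3.41 CPM in glands 1, 2 and 3, 48.4 and 143 in tumours 1a and 1b, 13.4 in tumour 3 and 8.71 in tumour 4. Every tumour was above every gland, and tumour 1b rather than 1a was highest. It rose 27.7-fold in the adenosquamous tumours (log2 4.79, SE 0.52, edgeR adjusted p = 0.0158), with a log2 fold change of 5.39 without tumour 1a and 3.85 without tumour 1b, neither of which passed. Over all 4 tumours the log2 fold change was 3.96 (edgeR adjusted p = 0.0610), and it passed without tumour 4 (log2 4.25, edgeR adjusted p = 0.0303). Its partners in cartilage were at low levels in every library. Col2a1, the main cartilage fibril chain, held 0, 0 and 4 counts in the glands, 10, 9 and 24 in tumours 1a, 1b and 3 and 1 in tumour 4. Col11a2 was at 1.06, 2.02 and 0.806 CPM in the glands and at 2.30, 4.49, 6.80 and 1.08 in tumours 1a, 1b, 3 and 4. Acan, a cartilage marker, was at 0 in all 3 glands and at 6.55, 0.136, 1.28 and 0.0697 CPM in tumours 1a, 1b, 3 and 4. The 6 cartilage markers in the tables, Acan among them, summed to 37.5, 14.6 and 12.2 CPM in glands 1, 2 and 3. In tumours 1a, 1b, 3 and 4 they summed to 52.4, 51.15, 74.5 and 35.1 CPM. Only 1 of the 6 was tested over all tumours, and it did not pass in edgeR (unadjusted p under 0.05).

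The remaining fibrillar genes are the late-described Col24a1 and Col27a1. Col24a1 was at 0.707, 0.662 and 5.88 CPM in glands 1, 2 and 3, 8.43 and 11.7 in tumours 1a and 1b, 0.0985 in tumour 3 and 0.523 in tumour 4. Col27a1 was at 8.84, 18.9 and 10.3 CPM in the glands and at 34.2, 15.9, 1.48 and 1.64 in tumours 1a, 1b, 3 and 4. Gland 3 alone held much Col24a1 among the glands, and Col27a1 was lower in tumours 3 and 4 than in every other library. The log2 fold change of Col27a1 was -3.11 in tumour 3 (edgeR adjusted p = 0.0986) and -2.96 in tumour 4 (edgeR adjusted p = 0.0618), and neither passed. DESeq2, and edgeR with no filter on counts, called Col27a1 in both.

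Upstream sequence was available for some of these genes from RefSeq (build GRCm38.p6), as the 250 bases before an annotated start, of which only bases outside annotated exons are shown. In all, 35 of the 44 collagens had an entry, in 38 windows; Col1a1, Col5a2 and Col12a1 were among those without one. Col3a1, Col5a1 and Col5a3 are set side by side because they are fibrillar genes that differed in whether they passed in the adenosquamous tumours. Capitals mark 3 motifs, the TATA box core TATAAA, the CCAAT box and the GC box core GGGCGG. Each was searched on both strands, so its reverse complement counts too, and no motif overlapped another.
Col3a1, chr1:45311288-45311537, plus strand: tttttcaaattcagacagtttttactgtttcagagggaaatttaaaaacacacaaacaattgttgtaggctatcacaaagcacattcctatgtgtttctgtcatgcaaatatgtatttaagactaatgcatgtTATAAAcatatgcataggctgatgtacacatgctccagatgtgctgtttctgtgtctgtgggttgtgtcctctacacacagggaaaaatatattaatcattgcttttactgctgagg
Col5a1, chr2:27886175-27886424, plus strand: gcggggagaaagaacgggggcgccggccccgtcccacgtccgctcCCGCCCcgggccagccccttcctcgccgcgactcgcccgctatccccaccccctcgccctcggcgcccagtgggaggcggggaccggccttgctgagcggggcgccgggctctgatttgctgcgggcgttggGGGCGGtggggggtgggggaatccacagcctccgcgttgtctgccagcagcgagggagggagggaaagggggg
Col5a3, chr9:20815068-20815317, minus strand: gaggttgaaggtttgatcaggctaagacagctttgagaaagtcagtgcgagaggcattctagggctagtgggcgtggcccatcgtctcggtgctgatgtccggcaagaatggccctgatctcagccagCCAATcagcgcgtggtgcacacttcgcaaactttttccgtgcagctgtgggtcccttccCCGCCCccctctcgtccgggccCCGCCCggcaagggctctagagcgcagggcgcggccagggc
The Col3a1 window held TATAAA and no CG dinucleotide at 35.2% G and C. The Col5a1 window held 28 CG dinucleotides and 2 GGGCGG at 76.4% G and C, and the Col5a3 window held 17, with 2 GGGCGG and 1 CCAAT. The other fibrillar genes with a window did not divide in this way. Col11a2, Col24a1 and Col27a1, which did not pass in the adenosquamous tumours, held 14, 3 and 15 CG dinucleotides. Col1a2 and Col11a1, which passed, held 11 and 7. Among 32851 promoter windows of the same length over all genes, 33.9% held CCAAT, 32.7% GGGCGG and 12.4% TATAAA. Among the 38 collagen windows the shares were 34.2%, 57.9% and 13.2%, so GGGCGG, the core of the GC box, was more frequent than over all genes while the others were close. The median number of CG dinucleotides was 9.5 in the collagen windows and 6.0 over all genes. These are matches of letters and say nothing of binding.

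**Figure D3:**
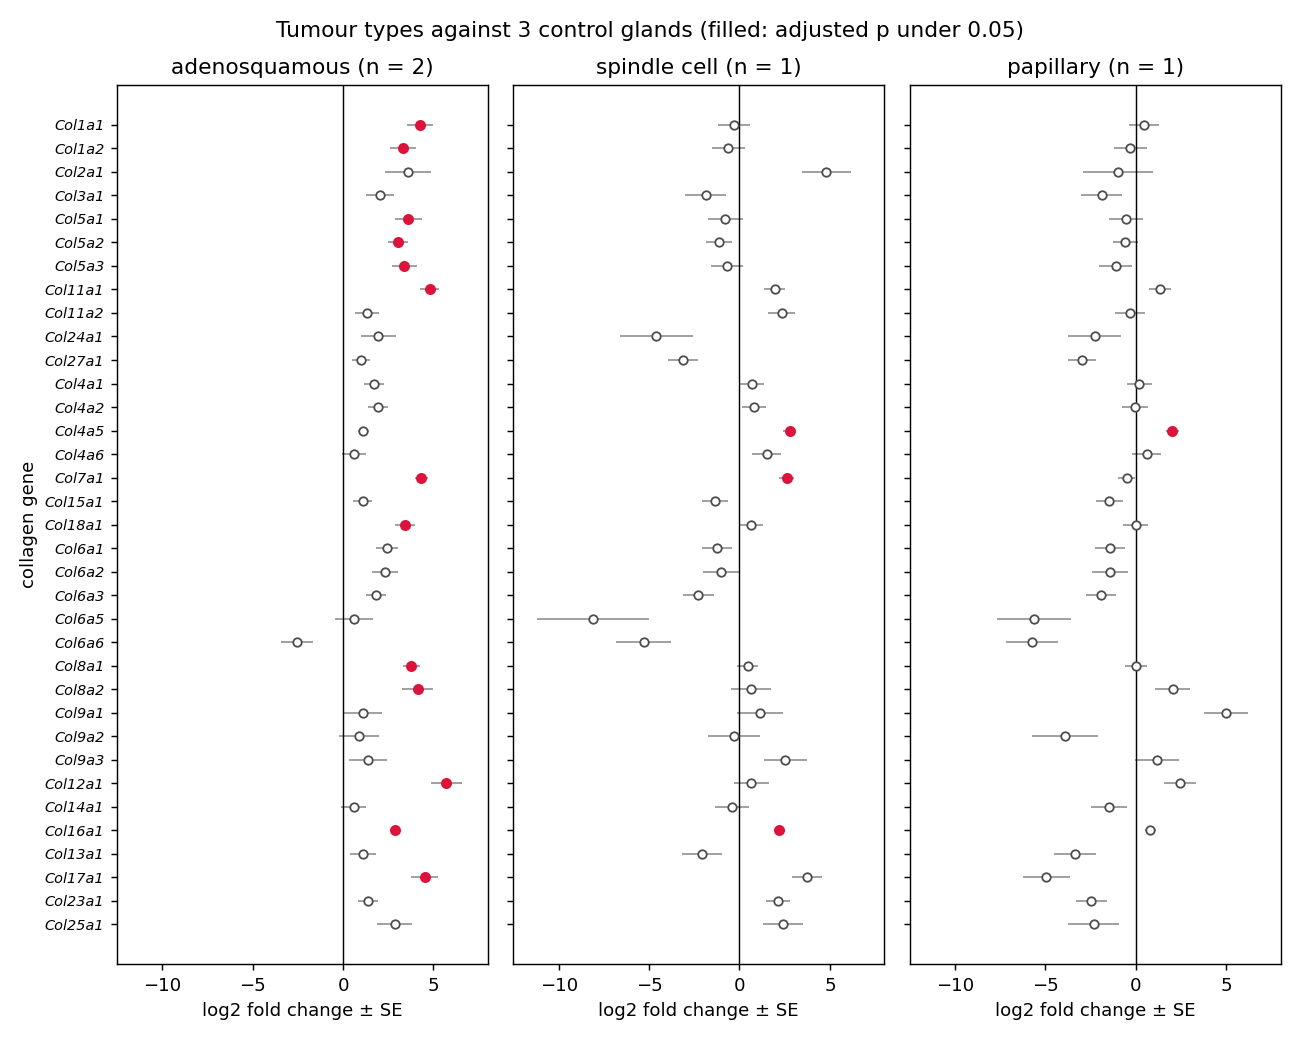
Log2 fold change (point) and its standard error (line) of the 35 tested collagens against the 3 control glands in the adenosquamous (n = 2), spindle cell (n = 1) and papillary (n = 1) tumours; filled points passed at adjusted p under 0.05. The filled points number 13, 3 and 1; Col6a5, with 0 counts in tumour 3, has a fitted value there that is no measured fold.

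Type IV collagen showed a split between its common and its less common chains. Col4a1 and Col4a2 form the network found in nearly all basement membranes and lie head to head on chromosome 8. Col4a1 was at 58.7, 188 and 209 CPM in glands 1, 2 and 3, 499 and 496 in tumours 1a and 1b, 243 in tumour 3 and 175 in tumour 4. Col4a2 was at 50.6, 183 and 149 CPM in the glands and at 449, 513, 222 and 122 in tumours 1a, 1b, 3 and 4. Both were about equally high in tumours 1a and 1b and above every other library, but gland 1 was well below glands 2 and 3. With log2 fold changes of 1.71 (edgeR adjusted p = 0.104) and 1.91 (edgeR adjusted p = 0.0780) in the adenosquamous tumours, neither passed.

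Col4a5 and Col4a6 form the chain pair of basement membranes under some epithelia and smooth muscle, and lie head to head on the X chromosome. Col4a5 (ENSMUSG00000031274, chromosome X, 141475385 to 141689234) was at 6.72, 9.52 and 7.87 CPM in glands 1, 2 and 3, 15.4 and 19.9 in tumours 1a and 1b, 55.8 in tumour 3 and 32.9 in tumour 4. Every tumour was above every gland, and here the spindle cell tumour was highest and the adenosquamous tumours lowest among the tumours. Col4a5 rose 6.85-fold in the spindle cell tumour (log2 2.78, SE 0.35, edgeR adjusted p = 0.0364) and 4.04-fold in the papillary tumour (log2 2.01, SE 0.35, edgeR adjusted p = 0.0273). In the adenosquamous tumours it was 2.17-fold higher without passing (log2 1.11, SE 0.30, edgeR adjusted p = 0.0667), and over all 4 tumours 3.83-fold without passing (log2 1.94, SE 0.49, edgeR adjusted p = 0.0525; 0.0396 without tumour 1a, 0.0447 with a stricter filter on counts, 0.00221 in DESeq2). The spindle cell call was lost without gland 1, gland 3, tumour 1a or tumour 1b (edgeR adjusted p 0.0640 to 0.114) and the papillary call without gland 3, tumour 1a or tumour 1b (0.0502 to 0.0843).

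Col4a6 did not follow its neighbour in every library. It was at 14.9, 6.97 and 9.24 CPM in the glands and at 5.62, 25.6, 28.6 and 15.3 in tumours 1a, 1b, 3 and 4. Gland 1 and tumour 4 were alike, and tumour 1a was lower than all glands, so the groups overlapped (log2 fold change 0.87 over all tumours, edgeR adjusted p = 0.346). The ratio of Col4a5 to Col4a6 per length of exon was 0.537, 1.62 and 1.01 in the glands, 3.25 and 0.922 in tumours 1a and 1b, 2.32 in tumour 3 and 2.56 in tumour 4. The counts behind it were low in gland 1, with 19 for Col4a5 and 42 for Col4a6. Their starts face away from each other on the chromosome, and the sequence next to each start is shown because the genes lie head to head.
Col4a5, chrX:141475169-141475384, plus strand: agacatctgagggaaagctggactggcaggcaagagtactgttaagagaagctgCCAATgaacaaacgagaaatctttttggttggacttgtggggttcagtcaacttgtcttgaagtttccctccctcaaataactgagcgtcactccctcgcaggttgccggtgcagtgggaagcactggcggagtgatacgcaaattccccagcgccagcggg
Col4a6, chrX:141474077-141474326, minus strand: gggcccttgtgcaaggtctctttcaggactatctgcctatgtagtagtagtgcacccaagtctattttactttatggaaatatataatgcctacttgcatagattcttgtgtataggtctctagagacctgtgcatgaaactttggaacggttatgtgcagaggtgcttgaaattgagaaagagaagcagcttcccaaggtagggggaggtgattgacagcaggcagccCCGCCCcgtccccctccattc
The Col4a5 stretch is 216 bases because exon bases were left out, and it held 1 CCAAT. The Col4a6 window held 1 GGGCGG, and neither held TATAAA. For Col4a1 and Col4a2 the whole windows lay in annotated exons and are not shown.

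Col4a3 and Col4a4, chains of the kidney glomerulus and lung, did not pass the filter on low counts. Col4a3 held 0, 20 and 16 counts in the glands, 39 in tumour 1a, 2 in tumour 1b, 4 in tumour 3 and 2 in tumour 4. Col4a4 held 9, 36 and 23 counts in the glands and 54, 2, 8 and 3 in the tumours, in the same order. Tumour 1a was the only tumour with more than 10 counts of either gene.

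Of the other collagens of the basement membrane zone, Col7a1 and Col18a1 passed in the adenosquamous tumours in edgeR. Col15a1 passed in no comparison in edgeR, but was called among the tumour types by DESeq2 and by edgeR with no filter. Col7a1 makes the anchoring fibrils that fasten stratified epithelium to the tissue below. Col7a1 (ENSMUSG00000025650, chromosome 9, 108953586 to 108984875) was at 8.84, 5.45 and 9.67 CPM in glands 1, 2 and 3, 177 and 139 in tumours 1a and 1b, 48.4 in tumour 3 and 5.54 in tumour 4. Tumours 1a and 1b were highest, the spindle cell tumour next, and the papillary tumour lay within the range of the glands. It rose 19.97-fold in the adenosquamous tumours (log2 4.32, SE 0.36, edgeR adjusted p = 0.0157) and 6.11-fold in the spindle cell tumour (log2 2.61, SE 0.40, edgeR adjusted p = 0.0406), and its value in the papillary tumour did not pass (log2 -0.51, edgeR adjusted p = 0.473). Its 250 upstream bases are shown because it had the smallest p in the test among tumour types, and hold 1 CCAAT (as ATTGG) and 1 GGGCGG.
Col7a1, chr9:108953336-108953585, plus strand: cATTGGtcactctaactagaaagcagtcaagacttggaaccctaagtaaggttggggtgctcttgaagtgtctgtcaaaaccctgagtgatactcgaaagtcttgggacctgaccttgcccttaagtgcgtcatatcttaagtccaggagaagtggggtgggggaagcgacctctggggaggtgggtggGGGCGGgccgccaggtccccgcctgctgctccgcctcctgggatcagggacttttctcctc
The adenosquamous call was lost without gland 3, tumour 1a or tumour 1b (edgeR adjusted p 0.0520, 0.0503 and 0.0878), and the spindle cell call without any 1 gland or adenosquamous tumour (0.0503 to 0.114). Krt5, Krt14 and Krt17, keratins of basal and stratified epithelium, were also higher in the adenosquamous tumours (3 of the 4 basal markers passed), and Krt14 in the spindle cell tumour. The part of basal cells in the value of Col7a1 was not tested.

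Col15a1 and Col18a1 are multiplexins, with sugar-bearing chains that bridge basement membranes to the tissue around vessels, fat and muscle; the end of the type XVIII chain is known as endostatin. Col18a1 (ENSMUSG00000001435, chromosome 10, 77052178 to 77166548) was at 9.90, 29.1 and 37.7 CPM in the glands and at 258, 298, 41.0 and 25.6 in tumours 1a, 1b, 3 and 4. It rose 10.7-fold in the adenosquamous tumours (log2 3.42, SE 0.56, edgeR adjusted p = 0.0217), a call lost without gland 3, tumour 1a or tumour 1b. Col15a1 was at 29.7, 78.5 and 90.5 CPM in glands 1, 2 and 3, 100.4 and 181 in tumours 1a and 1b, 26.2 in tumour 3 and 23.9 in tumour 4. Tumours 1a and 1b were above the glands and tumours 3 and 4 below them, so that the log2 fold change over all tumours was 0.32 (edgeR adjusted p = 0.814) and turned to -0.03 without gland 1 and to -0.37 without tumour 1b.

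The type VI genes, whose chains form beaded filaments around cells, split into the widespread chains 1 to 3 and the chains 4 to 6, which can stand in for chain 3. None of the 5 tested passed in any comparison in edgeR. At unadjusted p under 0.05 the adenosquamous tumours had 3 higher and 1 lower, against 29.6% of all genes in either direction. The spindle cell tumour had 3 lower and the papillary tumour 2 lower at that level, against 22.3% and 30.7% in either direction. Col6a1 was at 29.7, 69.2 and 89.5 CPM in the glands and at 504, 184, 26.8 and 23.2 in tumours 1a, 1b, 3 and 4. Col6a2 was at 18.8, 45.4 and 88.5 CPM in glands 1, 2 and 3, 385 and 129 in tumours 1a and 1b, 25.2 in tumour 3 and 19.0 in tumour 4. Col6a3 was at 64.4, 112 and 207 CPM in the glands and at 602, 315, 26.6 and 33.6 in tumours 1a, 1b, 3 and 4. For these 3 genes tumours 1a and 1b were above every gland, while tumours 3 and 4 were below glands 2 and 3. Of chains 1 to 3 the largest adenosquamous difference was that of Col6a1, with a log2 fold change of 2.45 (edgeR adjusted p = 0.0541), and Col6a3 turned from 0.93 over all tumours to -0.01 without tumour 1a.

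Col6a6 was the 1 tested collagen with all 4 tumours below all 3 glands. It was at 4.24, 3.53 and 4.74 CPM in glands 1, 2 and 3, 1.19 and 0.136 in tumours 1a and 1b, 0.0985 in tumour 3 and 0.0697 in tumour 4. The glands lay close together, tumour 1a was lower and the other 3 tumours were near 0, with 1, 1 and 2 counts. Its log2 fold change over all tumours was -3.47 (edgeR adjusted p = 0.0684), and without tumour 1a it was -5.35 and passed (edgeR adjusted p = 0.0129). Col6a5 held 6, 61 and 48 counts in the glands, 70 in tumour 1a and 2, 0 and 1 in tumours 1b, 3 and 4. Col6a4 held 8, 36 and 7 counts in the glands and 13, 3, 1 and 4 in the tumours and was not tested. Adipocyte markers (9 of 10 lower) and 2 fibroblast markers were also lower in the tumours, and their part in the value of Col6a6 was not tested.

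The network collagens, type VIII of the vessel wall and cornea and type X of growing cartilage, were high in the adenosquamous tumours. Col8a1 (ENSMUSG00000068196, chromosome 16, 57624258 to 57754737) was at 18.0, 23.3 and 8.30 CPM in the glands and at 248, 207, 22.6 and 16.6 in tumours 1a, 1b, 3 and 4. Col8a2 (ENSMUSG00000056174, chromosome 4, 126286793 to 126314330) was at 1.77, 0.284 and 0.379 CPM in glands 1, 2 and 3, 12.6 and 7.35 in tumours 1a and 1b, 0.887 in tumour 3 and 2.33 in tumour 4. For Col8a1 tumours 3 and 4 lay within the range of the glands, and for Col8a2 tumour 4 was just above it. The adenosquamous rise was 13.8-fold for Col8a1 (log2 3.78, SE 0.48, edgeR adjusted p = 0.0158), a call lost without gland 3, tumour 1a or tumour 1b. Gland counts of Col8a2 were only 5, 9 and 8, so it passed the filter through the tumours alone, where it was high, and its call is given no weight. That call was lost without gland 2, gland 3, tumour 1a or tumour 1b, and without tumour 4 the gene was not tested.

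Col10a1, the marker collagen of hypertrophic cartilage, reached the count cutoff of the filter in too few libraries to be tested, and was not evenly spread. It held 6, 0 and 0 counts in the glands, 354 and 65 in tumours 1a and 1b, 1 in tumour 3 and 26 in tumour 4, or 30.1 and 8.84 CPM in the adenosquamous tumours and at most 2.12 elsewhere. With no filter on low counts it passed in the adenosquamous tumours. Of the 5 bone markers, Sp7 and Ibsp were at 0 in all 3 glands and in tumour 3, Ibsp was at 4.51 and 8.57 CPM in tumours 1a and 1b, and Bglap was at 0 outside tumour 4. The more abundant Runx2 and Alpl took other orders of libraries. Runx2 was at 2.48, 7.38 and 6.45 CPM in the glands and at 41.0, 26.9, 40.2 and 1.39 in tumours 1a, 1b, 3 and 4. Alpl was at 4.60, 5.17 and 14.7 CPM in glands 1, 2 and 3, 5.28 and 10.6 in tumours 1a and 1b, 4.24 in tumour 3 and 46.5 in tumour 4. Of the 6 cartilage markers in the tables, whose sums are given above with Col11a1, Matn1 was at 0 in every library. The part of such cells in the values of Col10a1 was not tested.

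The FACIT class held both the largest rise of the family and its 1 call over all tumours. Col12a1 binds the surface of type I fibrils in tendon, skin and tissue under load. Col12a1 (ENSMUSG00000032332, chromosome 9, 79598991 to 79718831) was at 4.60, 14.6 and 32.7 CPM in the glands and at 1275, 579, 27.5 and 95.1 in tumours 1a, 1b, 3 and 4. Tumours 1a and 1b were far above the rest, tumour 4 was above all glands, and tumour 3 lay within their range. It rose 52.7-fold in the adenosquamous tumours (log2 5.72, SE 0.88, edgeR adjusted p = 0.0204), with log2 fold changes of 5.06 without tumour 1a, 6.21 without tumour 1b and 6.53 without gland 3, none of which passed. Its relative Col14a1, which binds the same kind of fibril, was at 4.60, 29.6 and 27.3 CPM in glands 1, 2 and 3, 39.1 and 23.5 in tumours 1a and 1b, 15.6 in tumour 3 and 7.46 in tumour 4. The groups overlapped for Col14a1 (log2 fold change 0.04 over all tumours, edgeR adjusted p = 0.977), and its sign turned without gland 1 or tumour 1a (-0.41 in each case). The ratio of Col12a1 to Col14a1 per length of exon was 0.461, 0.226 and 0.553 in the glands, 14.99 and 11.3 in tumours 1a and 1b, 0.813 in tumour 3 and 5.87 in tumour 4.

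Col16a1, a minor collagen near basement membranes and in skin, was the collagen that rose over all tumours. Col16a1 (ENSMUSG00000040690, chromosome 4, 130047840 to 130099283) was at 13.1, 16.9 and 14.98 CPM in the glands and at 114, 108, 69.7 and 26.3 in tumours 1a, 1b, 3 and 4. The glands spread little, every tumour was above every gland, and the papillary tumour was the nearest to the glands. It rose 5.29-fold over all tumours (log2 2.40, SE 0.52, edgeR adjusted p = 0.0345), 7.38-fold in the adenosquamous tumours (log2 2.88, SE 0.26, edgeR adjusted p = 0.0158) and 4.62-fold in the spindle cell tumour (log2 2.21, SE 0.30, edgeR adjusted p = 0.0386). In the papillary tumour it was 1.75-fold higher without passing (log2 0.80, edgeR adjusted p = 0.150). Its log2 fold change over all tumours stayed between 2.20 and 2.64 with any 1 library left out, but of these 7 fits only that without tumour 4 kept the call. With limma-voom its adjusted p was 0.0581.

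Type IX genes, a FACIT of cartilage, were spread differently, with 1 chain very high in the papillary tumour. Col9a1 (ENSMUSG00000026147, chromosome 1, 24177610 to 24252684) was at 13.8, 7.85 and 1.14 CPM in glands 1, 2 and 3, 4.51 and 26.7 in tumours 1a and 1b, 15.8 in tumour 3 and 225 in tumour 4. Tumour 4 was far above all other libraries, which overlapped. The log2 fold change in the papillary tumour was 4.98 (edgeR adjusted p = 0.0520), which did not pass in edgeR but did in DESeq2, in limma-voom and with either other filter. Its partner chains did not share that level: Col9a2 was at 11.3, 3.50 and 2.61 CPM in the glands and at 1.45, 19.1, 4.43 and 0.348 in tumours 1a, 1b, 3 and 4, and Col9a3 was at 14.9, 4.29 and 2.27 CPM in glands 1, 2 and 3, 4.09 and 30.3 in tumours 1a and 1b, 38.4 in tumour 3 and 14.7 in tumour 4. Tumour 4 had the lowest Col9a2 of all libraries, and the ratio of Col9a1 to Col9a2 per length of exon was 395 there against 0.266 to 2.17 in the other 6. Up to 6.07% of the exon bases of Col9a3 lie under exons of Tcfl5 on the other strand, which the counting cannot separate if strand was not used.

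Col28a1, a collagen with a von Willebrand factor domain that is known from peripheral nerve, had the same library on top. It held 0, 26 and 17 counts in the glands, 5, 7 and 5 in tumours 1a, 1b and 3 and 491 in tumour 4 (17.1 CPM there and at most 0.952 elsewhere), and was not tested. Sox10, a transcription factor of Schwann cells that other cell types also express, was at 12.4, 20.1 and 12.9 CPM in the glands and at 3.32, 71.0, 66.7 and 119.6 in tumours 1a, 1b, 3 and 4. The part of such cells in these values was not tested. The starts of both genes are shown because they were highest in the same tumour. Col9a1 has an upstream and a downstream start.
Col9a1, upstream start, chr1:24177360-24177609, plus strand: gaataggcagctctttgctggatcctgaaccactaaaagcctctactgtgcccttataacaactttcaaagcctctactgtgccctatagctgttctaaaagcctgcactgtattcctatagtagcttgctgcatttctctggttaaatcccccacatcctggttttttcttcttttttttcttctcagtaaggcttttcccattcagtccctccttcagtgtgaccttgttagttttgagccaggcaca
Col9a1, downstream start, chr1:24194953-24195186, plus strand: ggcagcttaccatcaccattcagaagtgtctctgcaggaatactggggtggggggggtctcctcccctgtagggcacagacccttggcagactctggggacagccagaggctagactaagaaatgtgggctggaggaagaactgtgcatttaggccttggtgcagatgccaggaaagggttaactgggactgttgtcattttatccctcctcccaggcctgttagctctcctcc
Col28a1, chr6:8192618-8192867, minus strand: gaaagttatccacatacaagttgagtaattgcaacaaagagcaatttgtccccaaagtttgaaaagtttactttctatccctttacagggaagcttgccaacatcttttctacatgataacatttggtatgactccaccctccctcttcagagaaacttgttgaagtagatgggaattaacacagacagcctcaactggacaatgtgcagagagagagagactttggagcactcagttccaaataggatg
No letters are in capitals, since none of the motifs lay in the parts shown, and none of the 3 windows held a CG dinucleotide. Which start was used cannot be read from gene counts.

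The other FACIT genes were too low to test. Col19a1 held at most 10 counts and Col22a1 at most 17 in any library. Col20a1 held 1, 38 and 33 counts in the glands, 14 in each adenosquamous tumour and 7 in each of tumours 3 and 4. Col26a1, which is grouped with no class, held at most 9 counts.

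Among transmembrane collagens Col17a1 passed in the adenosquamous tumours. It is a part of the hemidesmosome, the rivet between basal epithelial cells and the basement membrane. Col17a1 (ENSMUSG00000025064, chromosome 19, 47646344 to 47692094) was at 2.48, 5.04 and 11.6 CPM in glands 1, 2 and 3, 232 and 72.8 in tumours 1a and 1b, 89.7 in tumour 3 and 0.209 in tumour 4. It was high in tumours 1a, 1b and 3 and, with 6 counts, lower in tumour 4 than in any gland, so the tumour types lay on both sides of the glands. It rose 22.8-fold in the adenosquamous tumours (log2 4.51, SE 0.76, edgeR adjusted p = 0.0231), with log2 fold changes of 3.47 without tumour 1a, 5.16 without tumour 1b and 5.24 without gland 3, none of which passed; the call was also lost without gland 1. It did not pass in the spindle cell tumour (log2 3.75, edgeR adjusted p = 0.0706) or the papillary tumour (log2 -4.95, edgeR adjusted p = 0.0629). DESeq2, and edgeR with no filter on counts, called Col17a1 in both. The 4 basal markers summed to 28.4 to 53.9 CPM in glands and to 1537, 718, 309 and 21.3 CPM in tumours 1a, 1b, 3 and 4. Of these, Krt14 was at 855, 428, 132 and 19.5 CPM and Trp63 at 67.2, 71.6, 64.1 and 0.348 CPM in these tumours. Among the tumours both were lowest in tumour 4, as Col17a1 was. Tumour 3 was below tumour 1b for both but above it for Col17a1. The part of basal cells was not tested.

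The other transmembrane genes were low. Col13a1, found at cell contacts and the neuromuscular junction, was at 1.42, 5.04 and 1.99 CPM in the glands and at 3.75, 9.12, 0.690 and 0.279 in tumours 1a, 1b, 3 and 4. Col23a1 was at 2.48, 1.73 and 2.32 CPM in glands 1, 2 and 3, 8.001 and 3.13 in tumours 1a and 1b, 9.36 in tumour 3 and 0.383 in tumour 4. Col25a1, known from motor neurons, was at 1.77, 1.58 and 2.51 CPM in the glands and at 2.30, 26.4, 10.5 and 0.383 in tumours 1a, 1b, 3 and 4. All 4 transmembrane genes were lower in tumour 4 than in every gland, with a median log2 fold change of -2.91. Tumour 4 held only 8, 6, 11 and 11 counts of Col13a1, Col17a1, Col23a1 and Col25a1. The share of all genes that lay below every gland in tumour 4 was not counted. In edgeR 0 of the 4 passed there, against 5.41% of all genes lower. At unadjusted p under 0.05 there were 3, against 30.7% of all genes in either direction. DESeq2 called Col13a1, Col17a1 and Col23a1. The log2 fold change of Col13a1 over all tumours, 0.22, turned to -0.06 without gland 1 and -0.87 without tumour 1b.

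Whether the tumour types differ from each other was tested directly. Of the 35 collagens 0 passed, against 0.495% of all genes tested, although 25 were at an unadjusted p under 0.05, against 19.7% of all genes tested; DESeq2 called 24 and limma-voom 1, Col7a1. The smallest p was that of Col7a1 (edgeR adjusted p = 0.0542), followed by Col8a1 (0.0711), Col27a1 (0.0716), Col5a2 (0.0777) and Col17a1 (0.0795). Col7a1 was 1.71 lower in the spindle cell than in the adenosquamous tumours on the log2 scale and 4.83 lower in the papillary tumour. For Col1a1 these differences were 4.56 and 3.81 lower (edgeR adjusted p = 0.108), and for Col12a1 5.08 and 3.29 lower (edgeR adjusted p = 0.143). Col4a5 went the other way, 1.66 and 0.90 higher than in the adenosquamous tumours (edgeR adjusted p = 0.144). With 3 residual degrees of freedom, calls in 1 type and not in another are therefore not shown by this test to differ between types.

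Levels of different genes were compared per kilobase of merged exon, scaled to 1000000 per library (TPM computed here). Col3a1 was the highest collagen in all 3 glands, at 10.7, 59.9 and 40.5 TPM. Col1a1 was the highest in tumours 1a and 1b, at 434.6 and 171.7 TPM, Col4a2 in tumour 3 at 57.7 and Col9a1 in tumour 4 at 56.4. In tumour 3 Col4a1 was close behind, at 56.0 TPM. Merged exons take in every annotated exon of a gene. They can thus be longer than its transcripts, by amounts that differ between genes. The ratio of Col3a1 to Col1a1 per length was 3.30, 4.01 and 3.26 in the glands, 0.846 and 0.559 in tumours 1a and 1b, 1.20 in tumour 3 and 0.707 in tumour 4. Every gland was thus above every tumour in that ratio, also where Col1a1 itself was no higher than in glands. The ratio of Col1a1 to Col1a2 was 1.25, 1.11 and 1.21 in the glands and 2.20, 2.39, 1.46 and 1.98 in the tumours, higher in every tumour than in every gland. The head-to-head pair Col4a1 and Col4a2 kept a ratio between 0.856 and 1.27 in all 7 libraries. These ratios were picked after their values were seen and carry no test.

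**Figure D4:**
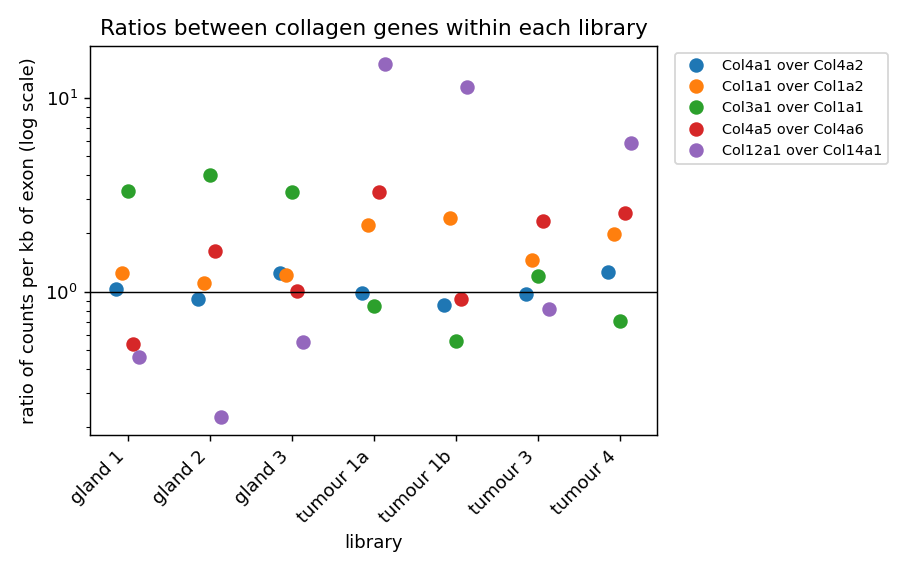
Ratios between 5 pairs of collagen genes in counts per kilobase of exon (log axis) in each of the 7 libraries, 1 point per pair and library, with the line at equal levels. Col3a1 over Col1a1 is between 3.26 and 4.01 in the glands and at most 1.20 in the tumours, while Col4a1 over Col4a2 stays between 0.856 and 1.27.

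The genes that modify, fold, cut, cross-link and bind collagen were taken from lists of 53 genes, of which 49 were tested. Over all tumours 3 were higher and 1 lower by edgeR, against 3.90% and 4.57% of all genes tested. At unadjusted p under 0.05 there were 12 and 3, against 28.9% of all genes in either direction. In the adenosquamous tumours 10 were higher and 1 lower, against 5.52% and 5.33% of all genes tested. Without P4ha3 and Loxl4, which no gland brought to the count cutoff of the filter, 8 were higher. At unadjusted p under 0.05 there were 29 and 2, against 29.6% of all genes in either direction. In the spindle cell tumour 1 was higher and 0 lower in edgeR, against 1.11% and 0.770% (DESeq2 called 13 and limma-voom 2). At unadjusted p under 0.05 there were 7 and 8, against 22.3% of all genes in either direction. In the papillary tumour 2 were higher and 4 lower, against 5.70% and 5.41%. At unadjusted p under 0.05 there were 6 and 14, against 30.7% of all genes in either direction. The 1 of 49 in the spindle cell and the 2 of 49 higher in the papillary tumour were near the adjusted shares of all genes. Their median log2 fold changes in these 4 comparisons were 0.94, 1.40, -0.01 and -0.91, against 0.12, 0.02, 0.00 and -0.01 over all genes. With 1 library left out, the call of Prelp over all tumours held in 7 of 7 fits, while those of P4hb, Ppib and Ddr1 were lost in 5, 6 and 6. All 11 adenosquamous calls were lost without gland 3, tumour 1a or tumour 1b, where 28, 22 and 29 of the 49 were at unadjusted p under 0.05 in edgeR. The spindle cell call was lost without gland 1, gland 3, tumour 1a or tumour 1b, and all 6 papillary calls without gland 3 (18 at unadjusted p under 0.05 in edgeR). P4hb, the shared subunit of the prolyl hydroxylase that stabilises the helix, was at 150.3, 133 and 151 CPM in glands 1, 2 and 3, 421 and 346 in tumours 1a and 1b, 325 in tumour 3 and 337 in tumour 4. Every tumour was above every gland, and P4hb rose 2.47-fold over all tumours (log2 1.31, SE 0.25, edgeR adjusted p = 0.0263) and 2.65-fold in the adenosquamous tumours (log2 1.41, SE 0.31, edgeR adjusted p = 0.0406). Its catalytic partner P4ha3 was at 0.354, 0.252 and 0.332 CPM in the glands and at 11.9, 3.27, 0.394 and 1.25 in tumours 1a, 1b, 3 and 4. It was among the calls in the adenosquamous tumours, but with 1 to 8 counts in the glands it passed the filter through the tumours alone. Colgalt1, which adds sugar to hydroxylysine, did not pass (log2 0.83 over all tumours, edgeR adjusted p = 0.0714). P4ha2 and Plod2, a prolyl and a lysyl hydroxylase, were lower in the papillary tumour (log2 -2.78 and -3.60; edgeR adjusted p = 0.0365 and 0.0413). Both calls were lost without gland 1, gland 3, tumour 1a or tumour 1b (edgeR adjusted p 0.0620 to 0.0843), and limma-voom did not call Plod2 (0.0548).

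Of the folding and export genes, Ppib, a prolyl isomerase of the endoplasmic reticulum, was at 29.4, 54.5 and 43.8 CPM in glands 1, 2 and 3, 119 and 106 in tumours 1a and 1b, 119 in tumour 3 and 73.2 in tumour 4. It rose 2.44-fold over all tumours (log2 1.29, SE 0.31, edgeR adjusted p = 0.0475). Creb3l1, a transcription factor that switches on type I collagen in bone cells, was at 6.72, 6.34 and 6.54 CPM in the glands and at 18.0, 11.0, 21.4 and 57.8 in tumours 1a, 1b, 3 and 4. It was highest in the papillary tumour and rose 8.85-fold there (log2 3.15, SE 0.37, edgeR adjusted p = 0.0182), with edgeR adjusted p = 0.0713 over all tumours. Serpinh1, the collagen chaperone HSP47, was at 29.4, 92.6 and 82.7 CPM in glands 1, 2 and 3, 283 and 117 in tumours 1a and 1b, 77.8 in tumour 3 and 7.94 in tumour 4. Tumour 1a was highest and tumour 4 lowest. It did not pass in any comparison in edgeR, while DESeq2 called it in the adenosquamous and papillary tumours and among the types, and edgeR with no filter in the papillary tumour and among the types.

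Propeptide removal and cross-linking genes were among those that rose in the adenosquamous tumours. Bmp1, the proteinase that trims the tail of fibrillar procollagen, was at 6.72, 14.4 and 19.3 CPM in the glands and at 142, 115, 19.9 and 13.9 in tumours 1a, 1b, 3 and 4, and rose 9.32-fold there (log2 3.22, SE 0.45, edgeR adjusted p = 0.0182). Adamts3, which can trim the other end, did not pass in edgeR in any comparison (log2 0.94 over all tumours, edgeR adjusted p = 0.284), but limma-voom called it in the papillary tumour. Pcolce2, which helps the tail proteinases, was at 5.30, 16.4 and 5.69 CPM in glands 1, 2 and 3, 6.64 and 1.36 in tumours 1a and 1b, 0.296 in tumour 3 and 0.104 in tumour 4. Tumours 1b, 3 and 4 were below all 3 glands, and it did not pass in edgeR (log2 -2.14 over all tumours, edgeR adjusted p = 0.280), while DESeq2 called it in the spindle cell and papillary tumours and among the types. Of the 5 lysyl oxidase genes, which start the cross-links between fibrils, Loxl2, Loxl3 and Loxl4 rose in the adenosquamous tumours, against 5.52% higher of all genes tested. Their log2 fold changes were 2.78, 4.04 and 4.06 (edgeR adjusted p = 0.0245, 0.0363 and 0.0301). Lox and Loxl1 did not pass there (log2 1.71 and 2.02; edgeR adjusted p = 0.134 and 0.125). None of the 5 passed in the spindle cell or papillary tumour in edgeR, where 0 were at unadjusted p under 0.05. Loxl4 passed the filter through the tumours alone, and its call is given no weight.

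Receptors and fibril-binding proteoglycans split. Ddr1, a collagen receptor kinase of epithelium, was at 8.13, 10.7 and 7.87 CPM in the glands and at 18.2, 23.5, 56.0 and 49.6 in tumours 1a, 1b, 3 and 4. It rose 4.12-fold over all tumours (log2 2.04, SE 0.47, edgeR adjusted p = 0.0398), 6.25-fold in the spindle cell tumour (log2 2.64, SE 0.34, edgeR adjusted p = 0.0386) and 5.54-fold in the papillary tumour (log2 2.47, SE 0.34, edgeR adjusted p = 0.0229). Ddr2, the related receptor of fibroblasts, was at 65.8, 113 and 89.4 CPM in glands 1, 2 and 3, 81.3 and 15.2 in tumours 1a and 1b, 16.4 in tumour 3 and 4.70 in tumour 4. It did not pass in edgeR in any comparison with all 7 libraries and the usual filter. DESeq2 called it in the spindle cell and papillary tumours and among the types, and limma-voom, edgeR with no filter and edgeR without tumour 1a or 1b called it in the papillary tumour. Mrc2, an uptake receptor for cut collagen, and Itga2, a collagen-binding integrin, rose in the adenosquamous tumours (log2 3.49 and 2.71; edgeR adjusted p = 0.0182 and 0.0325), and Itga1 fell in the papillary tumour (log2 -3.02, edgeR adjusted p = 0.0219). Prelp, which links basement membranes to fibrils, was at 55.5, 95.7 and 136 CPM in the glands and at 13.4, 12.2, 14.5 and 8.22 in tumours 1a, 1b, 3 and 4. It fell over all tumours (log2 -2.99, SE 0.37, edgeR adjusted p = 0.00905), with every tumour below every gland. Bgn and Fmod, which bind type I fibrils, rose in the adenosquamous tumours (log2 2.81 and 2.74; edgeR adjusted p = 0.0390 and 0.0280), while Lum did not pass over all tumours (log2 -3.14, edgeR adjusted p = 0.101). Dcn, another proteoglycan of type I fibrils, was at 152, 359 and 461 CPM in glands 1, 2 and 3, 237 and 12.5 in tumours 1a and 1b, 81.8 in tumour 3 and 4.56 in tumour 4. Unlike Col1a1 it lay within the range of the glands in tumour 1a and below all glands in tumour 1b. Its log2 fold change in the adenosquamous tumours was -1.38 (edgeR adjusted p = 0.454).

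**Figure D5:**
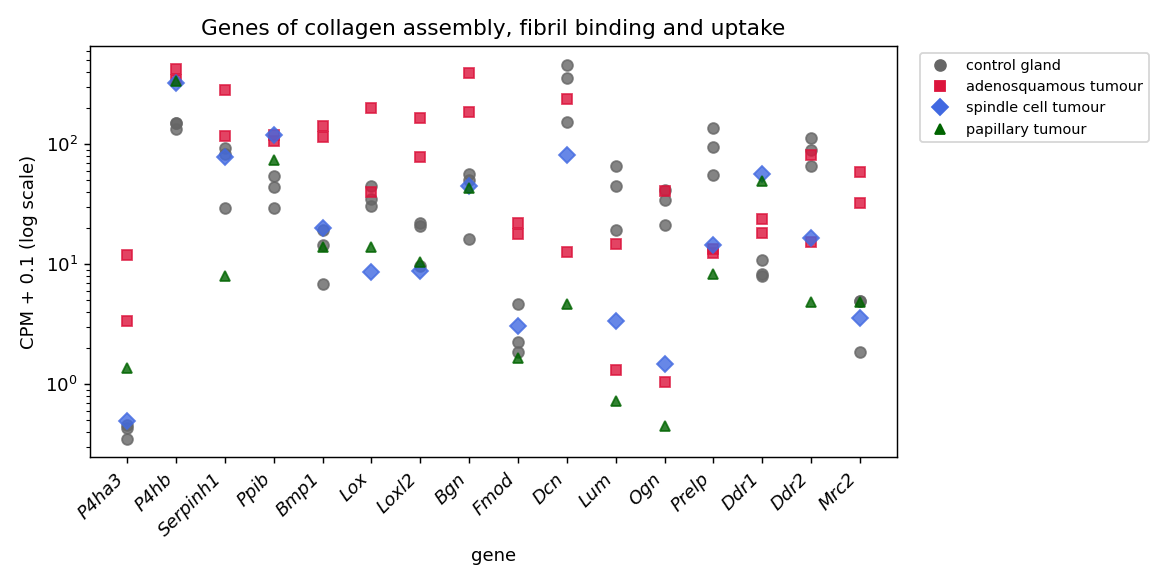
CPM plus 0.1 (log axis) of 16 genes of collagen assembly, fibril binding and uptake, 1 point per library, with glands as grey circles, adenosquamous tumours as red squares, the spindle cell tumour as a blue diamond and the papillary tumour as a green triangle. P4hb, P4ha3, Ppib and Ddr1 are higher and Prelp and Lum are lower in all 4 tumours than in all 3 glands. Of all genes tested, 16.3% were higher and 13.2% lower in this way, and P4ha3 passed the filter through the tumours alone.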

How the data were processed

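RNA from 3 control mammary glands and 4 tumours of ECD mice was sequenced, with 1 table per library of 50600 genes. The value column is headed TPM, but its sums ran from 5148438 to 35631279 and 2.34% to 6.14% of values were not whole, so the values were taken to be expected counts deposited by the authors and rounded to whole numbers. Per the submitters' processing notes, STAR 2.5, RSEM 1.3, limma and the build GRCm38 were used. The labels name a library kit that does not mark strand; the strand setting in counting is not given. Of the gene IDs, 50376 matched GENCODE release 21 for mouse, which gave positions and exon lengths.

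Genes were kept by edgeR's filterByExpr (minimum count 10, minimum total 15), which left 14149, scaled by TMM (factors 0.551 to 1.605) and tested with edgeR 4.0.16 quasi-likelihood F tests, with Benjamini-Hochberg adjustment over all genes tested. Tumours against glands came from a fit with 2 groups (5 residual degrees of freedom, common biological coefficient of variation 0.600), and each tumour type from a fit with 4 groups (3 residual degrees of freedom, 0.466), in which single libraries were assumed to vary like the others. A standard error is the size of the log2 fold change over the square root of F. The CPM used the scaled library sizes, with a prior count of 2 for log2 values. Intervals of shares are exact Clopper-Pearson at 95%. Alternatives used DESeq2 1.42.0, limma-voom (limma 3.58.1), other scalings and filters, and 1 library left out at a time. The code was tested on simulated data.

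The text names every collagen, the 2 genes of each partner list with the smallest p over all tumours, and partner genes that passed in a tumour type; Serpinh1, Adamts3, Lox, Loxl1, Ddr2 and Dcn were added after their values were seen. The members, lists and tests were chosen with earlier results of these data known. The listed symbols Col21a1 and Snorc were not in the tables, and 1 listed gene is not reported here. R 4.3.3 and Python 3.11.15 were used. Sequences are from RefSeq (GRCm38.p6).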

Additional observations from a re-analysis of the deposited data

Results flagged for a closer look

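Col6a6, a chain of the beaded filaments of type VI, stood at a log2 CPM of 0.40 in tumour 1a, apart from the other 3 tumours, which lay between -2.37 and -1.95. The gap to the nearest tumour was 0.846 of the range of the 4 tumours, above Dixon's 95% critical value for 4 samples. Tumour 1a held 14 counts and tumours 1b, 3 and 4 held 1, 1 and 2. Those 3 values thus lie near the floor that the prior count sets, -3.02 at 0 counts, which limits how far they can spread. Of the 30 collagens examined in this way 1 stood apart, and chance alone marks about 1 in 20 such groups.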

How the results depend on the processing

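The calls rested on few libraries and on the tool, and the cause was not tested. The numbers 1 and 3 occur in the names of glands and of tumours, but nothing in the labels says that they pair samples, and deviations of same-numbered samples from their group means correlated at -0.149 to 0.007. With the number as a replicate block, an alternative chosen after seeing the data, edgeR called 0 collagens over all tumours (10 at unadjusted p under 0.05), 0 of the 49 partner genes and 0 of all genes (3021 at unadjusted p under 0.05). The tumour types share fewer than 2 numbers with the glands, so no such fit was possible for them. The number of collagens called over all tumours was 1; it was 11 in DESeq2, 2 with no filter, 2 with at least 10 counts in every gland or every tumour, and 0 in edgeR when gland 2 was the sole control, where 0 were at unadjusted p under 0.05; limma-voom called 1, Col6a6 in place of Col16a1. In the adenosquamous tumours the 13 calls became 22 in DESeq2 and 19 with no filter. The 3 spindle cell calls became 8 in DESeq2 and 6 with no filter. The 1 papillary call became 11 in DESeq2, 2 in limma-voom, 7 with no filter and 3 with the stricter filter. Among tumour types the 0 calls (edgeR, 25 at unadjusted p under 0.05) became 24 in DESeq2, 1 in limma-voom, 21 with no filter and 1 with the stricter filter. With 1 library left out the counts ran from 0 to 4, 0 to 13, 0 to 3, 0 to 2 and 0 to 0 in these 5 comparisons. Median-ratio and upper-quartile scaling, and TMM without mitochondrial genes, gave the same counts of collagens called in all 5.

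Over all tumours some log2 fold changes that did not pass turned sign. In limma-voom Col14a1 was -0.43, Col15a1 -0.23, Col6a3 -0.071 and Col13a1 -1.58, and with gland 2 as the only control Col14a1 was -0.54 and Col13a1 -0.63. With 1 library left out Col14a1 ran from -0.41 (without gland 1 or tumour 1a) to 0.39, Col15a1 from -0.37 (without tumour 1b; -0.032 without gland 1) to 0.64, Col6a3 from -0.0091 (without tumour 1a) to 1.46, Col3a1 from -0.52 (without tumour 1a) to 1.54, and Col13a1 from -0.87 (without tumour 1b; -0.058 without gland 1) to 0.96.

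With mitochondrial genes left out of the total, the collagen shares were 0.104%, 0.293% and 0.248% in the glands, 2.23% and 1.04% in the adenosquamous tumours, 0.256% in tumour 3 and 0.183% in tumour 4.

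Counts over all genes moved too. The main numbers were 1199 over all tumours, 1535, 266 and 1572 in the adenosquamous, spindle cell and papillary tumours and 70 among types. DESeq2 called 3403, 3273, 2191, 3526 and 2188. With no filter the numbers were 2499, 1235, 2408 and 1494 in the last 4 of these. In limma-voom they were 484 in the spindle cell tumour, 2493 in the papillary tumour and 113 among types, and with the stricter filter 514 in the spindle cell tumour and 165 among types. With gland 2 as the only control there were 0 in edgeR, with 1655 at unadjusted p under 0.05. With 1 library left out they ran from 97 to 1351, 0 to 1574, 0 to 350, 0 to 1372 and 0 to 0. Of the 49 collagen partner genes, DESeq2 called 14, 31, 13 and 16 against the glands where edgeR called 4, 11, 1 and 6. Depth limits the low genes most: gland 1 held 5148438 counts, and the 9 collagens that did not pass the filter were not tested.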
